A study of Mus musculus with 7 samples.

Results

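Lysosomal genes were examined in the nonparenchymal fraction of the liver, meant to hold its macrophages, endothelium and other non-hepatocyte cells, from mice without Shp2 in Kupffer cells and from wild-type (WT) mice. The 38 genes encode cathepsins and other proteases, glycosidases, lipid hydrolases, membrane proteins and proton pump subunits. They were chosen by symbol, and all 38 had a row among the 20354 rows of the deposited table. The knockout (KO) libraries came from Shp2f/f:Clec4f-Cre+/- mice aged 2 months (n = 3), in which Cre is driven by Clec4f, a gene of resident Kupffer cells. The WT libraries came from mice of the same age (n = 4). All were of strain C57BL/6J and untreated, and the labels do not say whether the WT mice carried floxed alleles or Cre. The titles of the knockout libraries all name Shp2, while their genotype fields read Shp1, Shp2 and Shp3 in turn, and the titles were followed. The comparison asks how loss of Shp2 in Kupffer cells alters gene expression in the whole nonparenchymal fraction.

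Lysosomes are acidic organelles that break down proteins, glycans and lipids delivered by endocytosis, phagocytosis and autophagy. Their hydrolases work at the low pH set by the vacuolar proton pump (V-ATPase), and many of their genes are induced by TFEB, a transcription factor that binds short E-box sequences near their start sites. Kupffer cells and sinusoidal endothelial cells, the main scavenger cells of the liver, are rich in lysosomes.

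Total counts were 32003205, 19383142 and 15263666 in knockout replicates 1 to 3, and between 11678385 and 26545605 in the WT libraries. Rn18s, for 18S ribosomal RNA, reached 7.54% of counts in knockout replicate 3 and at most 0.122% in any other library. The 11 mitochondrial genes of the table took 18.1% to 33.2% of the counts in KO and 17.3% to 22.4% in WT libraries. Clec4f was at 436, 454 and 865 CPM in KO libraries, against 1638, 2656, 1386 and 1887 CPM in WT libraries, where CPM are counts scaled by library size and TMM factors. The groups were apart, and the log2 fold change (KO minus WT) was -1.69 ± 0.39 (SE; edgeR, adjusted p = 0.487). Ptpn11, the gene of Shp2, was at 78.6 ± 8.12 CPM in KO (SD, n = 3) and 83.6 ± 8.57 CPM in WT libraries (SD, n = 4). Other cells of the fraction keep Shp2, and reads from undeleted exons are counted too, so Ptpn11 checks the genotype weakly. All 12 Kupffer cell markers and all 14 sinusoidal endothelial markers had counts in every library. Hepatocyte markers were also present, with 13 of 14 found in the table and sums of 20750 to 44040 CPM in KO and 22210 to 65760 CPM in WT libraries. In bulk RNA of this kind, fewer cells of a type and less RNA per cell cannot be told apart.

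The 38 genes together made up 0.898%, 0.749% and 1.18% of the counts in the KO libraries, against 1.22%, 1.88%, 0.917% and 1.01% in the WT libraries. Their summed level was 8709, 8591 and 11142 in KO libraries, against 10889, 18725, 8896 and 11269 in WT libraries. WT replicate 2 was the highest of the 7 libraries and knockout replicates 1 and 2 were the lowest, and the groups overlapped. Ctsb, Lamp2, Psap, Ctsl and Ctss, named after their values were seen, gave 47.2% to 49.2% of the sum in KO libraries and 50.2% to 52.8% in WT libraries.

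**Figure D1:**
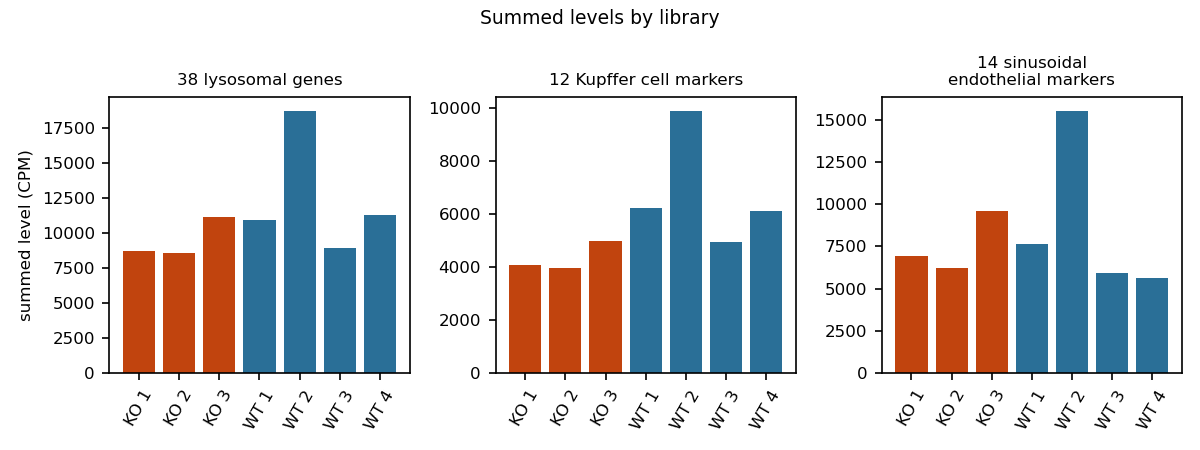
Summed levels in CPM (vertical axis) of the 38 lysosomal genes, 12 Kupffer cell markers and 14 sinusoidal endothelial markers, 1 bar per library, KO libraries left of WT libraries. WT replicate 2 has the tallest bar in all 3 panels, with 18725, 9911 and 15540 CPM.

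Per length, which allows levels to be compared between genes, cathepsin S led. Its mean level was 426 ± 76.2 CPM per kb of exon in KO (SD, n = 3) and 606 ± 192 CPM per kb in WT libraries (SD, n = 4). Cathepsin B followed, with a level of 330.5 ± 94.2 CPM per kb in KO and 513 ± 236 CPM per kb in WT libraries, so that its spread overlapped that of cathepsin S. Next came Psap, the precursor of the saposins that help degrade sphingolipids, with a level of 299 CPM per kb in KO and 363 CPM per kb in WT. The lowest levels were those of Tfeb (0.610 CPM per kb in KO, 0.549 CPM per kb in WT) and Atp6v0d2 (0.533 CPM per kb in KO, 0.4999 CPM per kb in WT). Exon lengths were those of GENCODE M21, which may differ from the annotation behind the counts. They join the exons of all transcripts of a gene, giving 6168 bases for Ctsl, 4743 for Ctsb and 1358 for Ctss. The order of genes depends on these lengths, and genes with long, little used transcripts may rank too low.

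**Figure D2:**
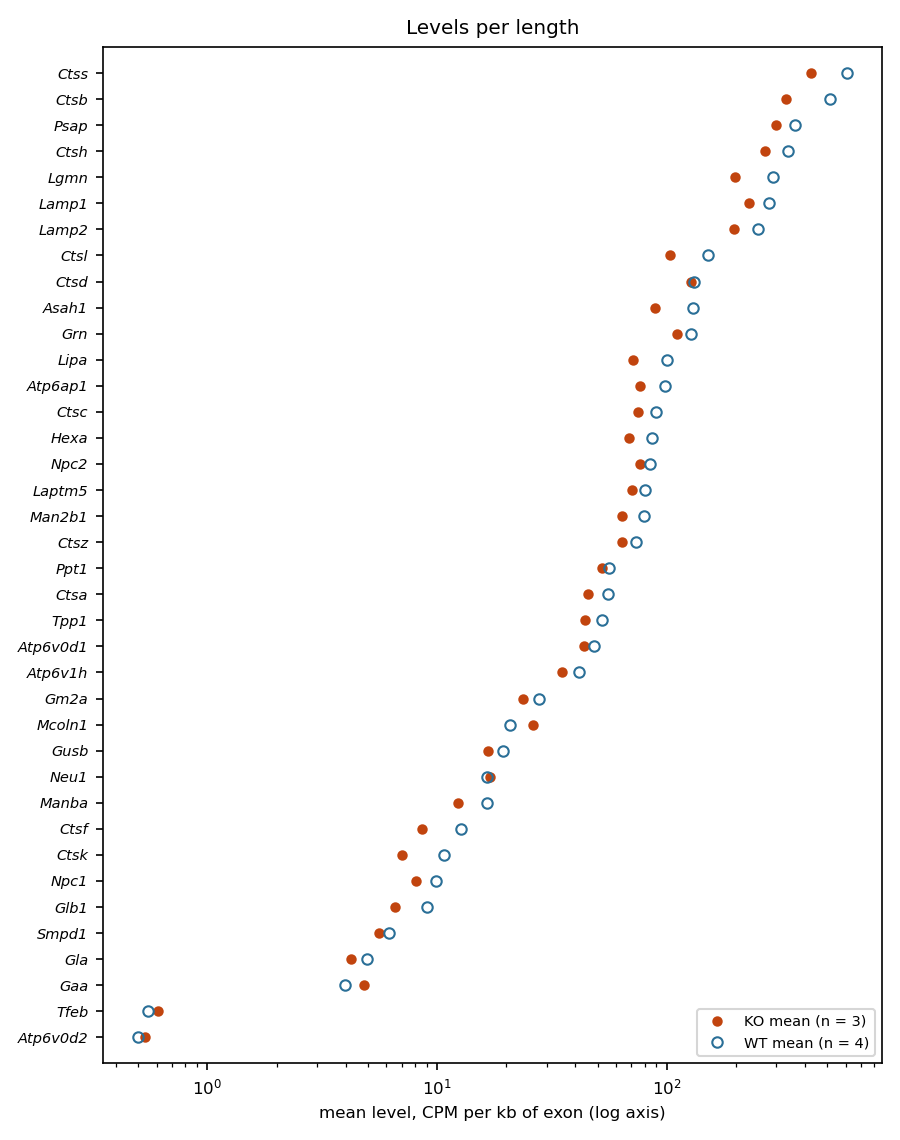
Mean level of each lysosomal gene in CPM per kb of exon (horizontal log axis), as filled points for KO (n = 3) and open points for WT (n = 4), ordered by the WT mean. Levels run from 0.533 (KO) and 0.4999 (WT) CPM per kb for Atp6v0d2 to 426 (KO) and 606 (WT) CPM per kb for Ctss.

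None of the 38 genes passed the test between KO and WT. In edgeR's quasi-likelihood test over the 14077 genes tested, 0 of the 38 were called, as were 0% of all genes, and the smallest adjusted p among the 38 was 0.956. No member had an unadjusted p under 0.05 (0 higher, 0 lower), against 2.27% of all genes higher and 2.35% lower. DESeq2 also called 0 of the 38, against 0.469% of all genes. Its unadjusted p was under 0.05 for 3 lower (Ctsf, Ctsl and Asah1) and 0 higher, against 3.11% and 2.43% of all genes. By limma voom with quality weights 0 were called, against 0.0639% of all genes, and at unadjusted p under 0.05 Ctsf was lower and 0 were higher, against 5.51% and 6.03%. In the edgeR fit, log2 fold changes were below 0 in 33 of the 38 and ran from -0.63 (Ctsb) to 0.34 (Mcoln1), with a median of -0.26. Of all genes tested, 48.3% were below 0, and their median was 0.01. The 2 groups did not overlap in 4 of the 38, all lower in KO (Ctsh, Ctsl, Asah1 and Atp6v1h), against 3.05% of all genes lower and 3.03% higher. A KO library was the lowest of the 7 in 29 of the 38, against 45.2% of all genes.

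The count below 0 moved with WT replicate 2 and, without that library, with knockout replicate 3. WT replicate 2 held the highest value of the 7 for 29 of the 38 genes, against 23.7% of all genes. Its log2 CPM lay above the mean of the other WT libraries in 34 of the 38, by a median of 0.74, where the median over all genes was -0.03. Without it, 21 of the 38 were below 0, against 45.9% of all genes, and the median log2 fold change was -0.0039. Leaving out the highest WT library raises KO minus WT by construction, so the direction of such moves was set beforehand. Of the 33 genes below 0 with all libraries, 29 moved toward 0 by over 1.5 times or past it without WT replicate 2. The exceptions were Ctsf, Ctsh, Ctsk and Atp6v1h. In that fit 0 were called and 0 had an unadjusted p under 0.05, where 1.99% of all genes were higher and 2.24% lower. Sinusoidal endothelial markers summed to 6226 to 9599 CPM in KO and 5655 to 15540 CPM in WT libraries, with the highest sum in WT replicate 2. Kupffer cell markers summed to 3982 to 4969 CPM in KO and 4953 to 9911 CPM in WT libraries, again highest in WT replicate 2. Their list includes Clec4f, which drives Cre here and had 436 to 865 CPM in KO and 1386 to 2656 CPM in WT libraries. Of these 12 markers, 10 had log2 fold changes below 0 and 2 above, from -3.41 to 2.03. General macrophage markers (12 of 12 with counts in every library) summed to 3738 to 4660 CPM in KO and 3348 to 5482 CPM in WT libraries. The part of these cell types in the lysosomal values was not tested.

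**Figure D3:**
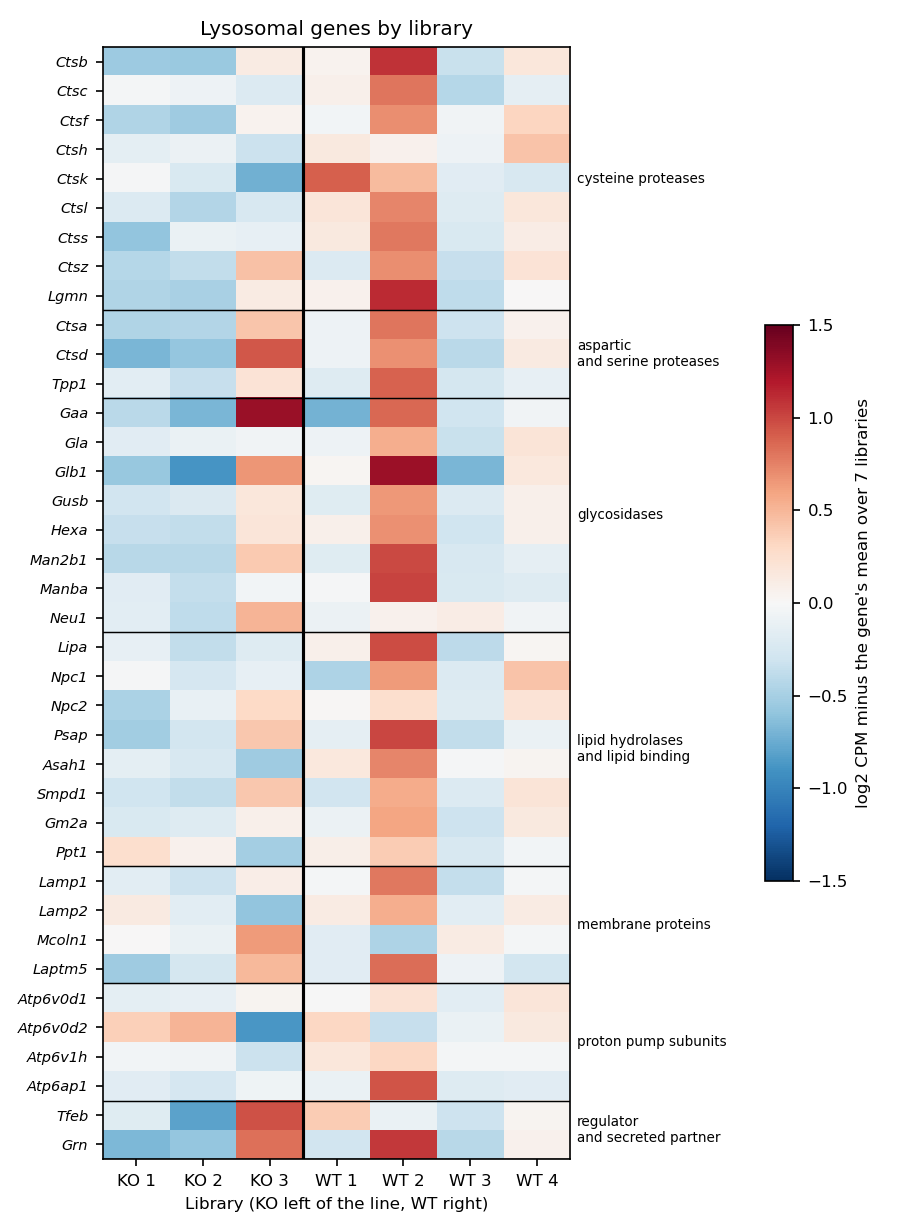
Heat map of log2 CPM minus each gene's mean over the 7 libraries, genes in rows by role, KO libraries left of the line and WT libraries right of it. WT replicate 2 is red for most genes, and knockout replicate 3 mixes red (Ctsd, Gaa, Grn, Tfeb) with blue (Ctsk, Asah1, Lamp2, Atp6v0d2).

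Knockout replicate 3 differed from the other KO libraries in a way that followed, in part, the base composition of the transcripts. It held the highest value of the 7 libraries for 6 of the 38, against 26.7% of all genes. Its log2 CPM lay above the mean of knockout replicates 1 and 2 in 30 of the 38 genes, by a median of 0.43, where the median over all genes was -0.0035. Across the 38 genes this difference rose with the GC content of the transcript (Spearman's rho = 0.852, n = 38 genes measured in the same 3 libraries). It did so across all genes as well (rho = 0.683, n = 13803 genes with a GC value). The median difference was 0.81 in the 19 genes of higher GC content and 0.05 in the 19 of lower GC content, split at 51.5%. The acid alpha-glucosidase gene Gaa, at 59.5% GC, had 37.6 CPM in knockout replicate 3, against 11.6 and 9.58 CPM in knockout replicates 1 and 2. The membrane protein gene Lamp2, at 38.7% GC, had 736 CPM there, against 1219 and 995 CPM. For the fold change between KO and WT, the relation with GC was weaker (rho = 0.414 across the 38, 0.242 across all genes). The share of Rn18s was highest in the same library, and its part in these values was not tested.

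**Figure D4:**
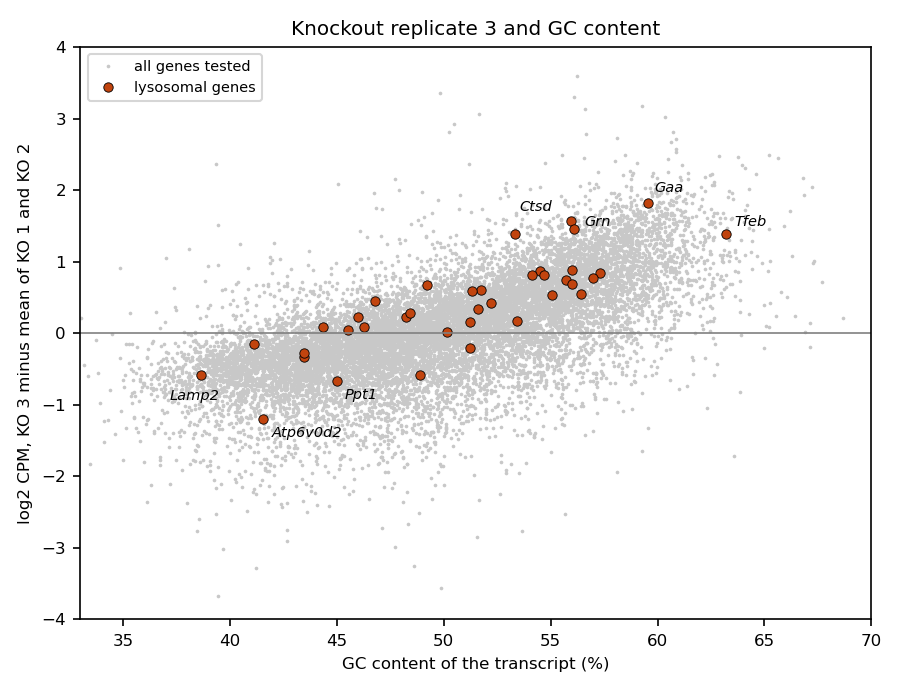
Log2 CPM of knockout replicate 3 minus the mean of knockout replicates 1 and 2 (vertical axis) against transcript GC content in percent (horizontal axis), orange points for the 38 lysosomal genes and grey points for all genes tested with a GC value within the axes. Among the 38 the lowest difference is -1.20 (Atp6v0d2, 41.6% GC) and the highest 1.82 (Gaa, 59.5% GC), with Lamp2 of lowest GC (38.7%) at -0.58 and Tfeb of highest GC (63.2%) at 1.39.

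Correcting each library for its trend on GC content, an alternative added after seeing the data, left 0 of the 38 called. Such a correction removes a library's trend on GC content by construction. With it, the difference of knockout replicate 3 from the mean of replicates 1 and 2 had a rho of 0.056 across the 38. The median of that difference was still 0.22. After the correction 36 of the 38 were below 0, against 53.4% of all genes, with a median of -0.34. With the correction and without WT replicate 2, 30 of the 38 were below 0, against 49.0% of all genes, with a median of -0.10. In the corrected fit of all libraries Ctsf had the only unadjusted p under 0.05 among the 38 (log2 fold change -0.69 ± 0.21, SE; edgeR, adjusted p = 0.646), against 3.23% of all genes lower and 2.97% higher. Knockout replicate 3 lay above the mean of knockout replicates 1 and 2 in 30 of the 38. Leaving it out lowers KO minus WT for most of them by construction, so the direction of that move was set beforehand. Both WT replicate 2 and knockout replicate 3 were then left out, a pair chosen with earlier results of these data known. In that fit 35 of the 38 were below 0, against 52.3% of all genes, and the median was -0.23. In those 5 libraries the groups did not overlap in 17 of the 38: 16 were lower in KO, against 13.3% of all genes, and Atp6v0d2 was higher, against 12.0%. The same fit called 0 of the 38, against 0.0141% of all genes, and Ctsd and Ctsf were lower at unadjusted p under 0.05 (edgeR, adjusted p = 0.594 for Ctsd and 0.557 for Ctsf), with 0 higher, against 3.96% of all genes lower and 3.62% higher.

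**Figure D5:**
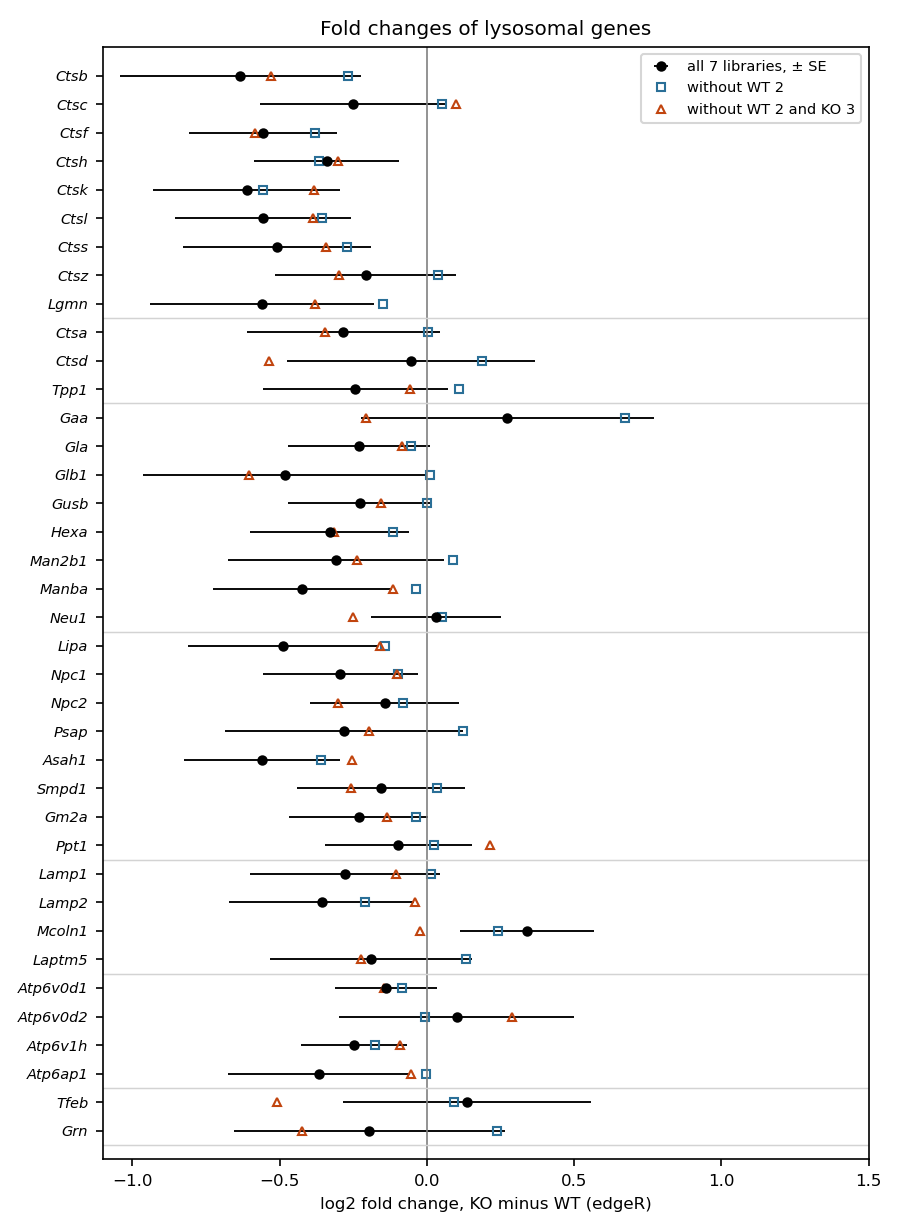
Log2 fold change, KO minus WT, of each lysosomal gene by edgeR (horizontal axis), with black points and bars for all 7 libraries ± SE, squares without WT replicate 2 and triangles without both WT replicate 2 and knockout replicate 3. With all libraries 33 of 38 points lie left of 0, and without WT replicate 2 the count is 21.

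Promoter windows were available in RefSeq's table (build GRCm38.p6) for 32 of the 38 genes, from 250 bases before to 50 bases after the start site. They were searched for CACGTG, the E-box core bound by TFEB and many related factors, and for the longer TCACGTGA, which contains it. Both read the same on either strand. CACGTG was present in 11 of the 32 genes, or 34.4%, against 8.09% of the 27025 genes with a window and 11.3% of those that were also tested. TCACGTGA was present in 5 of the 32, or 15.6% (Ctsa, Ctsd, Gla, Mcoln1 and Atp6v0d1), against 1.12% of all genes and 2.12% of the tested ones. Of the 32, 4 had more than 1 window, and a match in any window was counted. Shown are the 3 genes with a window and the smallest p in the comparison (Ctsf, Ctsk and Ctsl), the gene with the highest fold change (Mcoln1) and the common form of a pump subunit (Atp6v0d1). Capitals mark CACGTG, which begins 79 bases before the start site in Ctsf, 236 before it in Ctsl, 71 and 45 before it in Mcoln1 and 3 before it in Atp6v0d1. The window of Ctsk holds none. The windows lie at chr19:4854915-4855214 (plus strand), chr3:95498960-95499259 (plus strand), chr13:64370471-64370770 (minus strand), chr8:3500269-3500568 (plus strand) and chr8:105566015-105566314 (minus strand).
Ctsf: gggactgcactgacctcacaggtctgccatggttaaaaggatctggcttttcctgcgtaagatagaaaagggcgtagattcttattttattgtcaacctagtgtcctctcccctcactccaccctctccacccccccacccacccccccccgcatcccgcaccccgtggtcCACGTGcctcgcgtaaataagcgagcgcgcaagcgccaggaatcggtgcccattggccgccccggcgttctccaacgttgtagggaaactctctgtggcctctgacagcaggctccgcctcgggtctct
Ctsk: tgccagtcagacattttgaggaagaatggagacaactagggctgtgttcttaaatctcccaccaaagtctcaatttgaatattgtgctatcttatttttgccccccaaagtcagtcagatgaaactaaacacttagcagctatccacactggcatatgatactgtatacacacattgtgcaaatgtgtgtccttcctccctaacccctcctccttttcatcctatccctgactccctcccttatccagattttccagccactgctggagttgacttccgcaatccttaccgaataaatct
Ctsl: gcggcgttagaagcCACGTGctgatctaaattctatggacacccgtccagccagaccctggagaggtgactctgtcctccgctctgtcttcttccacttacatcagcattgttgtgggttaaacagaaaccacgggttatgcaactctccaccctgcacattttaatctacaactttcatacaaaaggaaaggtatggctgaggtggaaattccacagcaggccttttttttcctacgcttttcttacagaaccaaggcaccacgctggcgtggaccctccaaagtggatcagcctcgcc
Mcoln1: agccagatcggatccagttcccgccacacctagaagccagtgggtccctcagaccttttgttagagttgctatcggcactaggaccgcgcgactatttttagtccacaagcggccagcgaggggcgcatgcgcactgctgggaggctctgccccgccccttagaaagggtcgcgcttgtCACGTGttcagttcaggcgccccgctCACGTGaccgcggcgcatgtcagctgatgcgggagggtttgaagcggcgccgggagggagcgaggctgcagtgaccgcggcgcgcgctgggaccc
Atp6v0d1: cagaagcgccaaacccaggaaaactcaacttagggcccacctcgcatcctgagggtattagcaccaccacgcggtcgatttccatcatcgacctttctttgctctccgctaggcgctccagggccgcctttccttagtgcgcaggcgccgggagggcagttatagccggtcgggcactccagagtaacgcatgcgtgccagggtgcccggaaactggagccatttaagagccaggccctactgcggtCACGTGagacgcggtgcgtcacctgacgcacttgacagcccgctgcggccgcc
A match describes these letters only and is not evidence of binding.

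The cysteine proteases, which cut proteins within the lysosome and, in part, process antigens, had the lowest fold changes as a role group. All 9 were below 0 (median log2 fold change -0.56), and 0 passed. Cathepsin F (Ctsf), a papain-like protease, was at 15.2, 14.4 and 21.6 CPM in KO libraries, against 20.2, 33.8, 20.1 and 26.1 CPM in WT libraries. Only knockout replicate 3 reached into the WT range. The log2 fold change was -0.56 ± 0.25 (SE; edgeR, unadjusted p = 0.0510, adjusted p = 0.956), and -0.38 without WT replicate 2. Cathepsin L (Ctsl), a broad endopeptidase, was at 672, 572 and 659 CPM in KO libraries, against 883, 1290, 682 and 873 CPM in WT libraries. Every KO library lay below every WT library, the closest pair being 672 CPM (KO) and 682 CPM (WT). On the log2 scale the fold change of Ctsl was -0.56 ± 0.30 (SE; edgeR, adjusted p = 0.956), and -0.36 without WT replicate 2. Cathepsin H (Ctsh), an aminopeptidase, was at 442, 460 and 392 CPM in KO libraries, against 543, 515, 467 and 659 CPM in WT libraries. These groups were also apart, the closest pair being 460 CPM (KO) and 467 CPM (WT), and WT replicate 4 was the highest. For Ctsh the log2 fold change was -0.34 ± 0.25 (SE; edgeR, adjusted p = 0.956), and -0.37 without WT replicate 2.

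Cathepsin B (Ctsb), the most abundant of the 38 by CPM, was at 1317, 1303 and 2084 CPM in KO libraries, against 1983, 4061, 1526 and 2161 CPM in WT libraries. Knockout replicates 1 and 2 lay below every WT library and replicate 3 within the WT range. A log2 fold change of -0.63 ± 0.41 (SE) moved to -0.27 without WT replicate 2. Cathepsin S (Ctss), which trims the invariant chain of MHC class II in antigen-presenting cells, was at 459, 643 and 633 CPM in KO libraries, against 763, 1196, 589 and 743 CPM in WT libraries. Knockout replicates 2 and 3 lay between the lowest and the next WT value, and the log2 fold change of -0.51 ± 0.32 (SE) moved to -0.27 without WT replicate 2. Cathepsin K (Ctsk), known for collagen breakdown in osteoclasts, was at 12.8, 11.1 and 7.91 CPM in KO libraries, against 24.3, 18.2, 11.5 and 11.1 CPM in WT libraries. WT replicate 1 was the highest here, and the log2 fold change of -0.61 ± 0.32 (SE) moved to -0.35 without it.

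Legumain (Lgmn), an endopeptidase that cuts after asparagine and activates cathepsins, was at 345, 337 and 515 CPM in KO libraries, against 492, 1021, 362 and 474 CPM in WT libraries. The WT replicate 2 value was more than 2 times that of any other WT library, and the log2 fold change of -0.56 ± 0.38 (SE) moved to -0.15 without it. Cathepsin C (Ctsc), which activates serine proteases of granules, had a log2 fold change of -0.25. Cathepsin Z (Ctsz), a carboxypeptidase, had a log2 fold change of -0.21. Both were above 0 without WT replicate 2 (0.05 for Ctsc, 0.04 for Ctsz).

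The aspartic and serine proteases had log2 fold changes closer to 0. Cathepsin A (Ctsa), a serine carboxypeptidase that also protects beta-galactosidase and neuraminidase, was at 131, 132 and 239 CPM in KO libraries, against 170, 314, 144 and 187 CPM in WT libraries. Knockout replicates 1 and 2 lay below every WT library, and replicate 3 lay above all but WT replicate 2. For Ctsa the log2 fold change was -0.28 ± 0.33 (SE; edgeR, adjusted p = 0.956), and 0.0021 without WT replicate 2. Cathepsin D (Ctsd), the main aspartic protease of lysosomes, was at 157, 170 and 482 CPM in KO libraries, against 241, 408, 191 and 279 CPM in WT libraries. Its KO libraries were the lowest and the highest of the 7, and its log2 fold change of -0.05 ± 0.42 (SE) moved to -0.54 without WT replicate 2 and knockout replicate 3. Tripeptidyl peptidase 1 (Tpp1), whose human gene is mutated in a neuronal ceroid lipofuscinosis, had 157 ± 31.0 CPM in KO (SD, n = 3) and 186 ± 80.7 CPM in WT libraries (SD, n = 4).

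Of the 8 glycosidases, which remove sugars from glycoproteins and glycolipids, 6 were below 0 and 0 passed (median log2 fold change -0.27). The beta-mannosidase gene Manba was at 45.5, 40.2 and 49.95 CPM in KO libraries, against 50.7, 103, 43.7 and 44.7 CPM in WT libraries. Apart from WT replicate 2, all libraries lay between 40.2 and 50.7 CPM. For Manba the log2 fold change was -0.42 ± 0.30 (SE; edgeR, adjusted p = 0.956), and -0.04 without that library. The alpha-mannosidase gene Man2b1 was at 195, 195 and 342 CPM in KO libraries, against 230, 520, 222 and 239 CPM in WT libraries. Knockout replicates 1 and 2 were the lowest of the 7, and knockout replicate 3 and WT replicate 2 the highest.

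The beta-galactosidase gene Glb1 was at 11.3, 9.05 and 26.6 CPM in KO libraries, against 17.1, 40.7, 10.4 and 18.8 CPM in WT libraries. The log2 fold change of -0.48 ± 0.48 (SE) went to 0.0113 without WT replicate 2 and to -0.60 without that library and knockout replicate 3. Gaa, which breaks down glycogen, was at 11.6, 9.58 and 37.6 CPM in KO libraries, against 9.42, 27.9, 12.5 and 14.9 CPM in WT libraries. With a log2 fold change of 0.27 ± 0.50 (SE), Gaa was above 0, but at -0.61 without knockout replicate 3. The sialidase gene Neu1 was at 36.4, 31.2 and 57.7 CPM in KO libraries, against 38.2, 42.6, 43.9 and 39.0 CPM in WT libraries. The KO values lay on both sides of the narrow WT range. For Neu1 the log2 fold change was 0.03 ± 0.22 (SE), but -0.27 without knockout replicate 3. The remaining members were Hexa (-0.33), a subunit of beta-hexosaminidase, the alpha-galactosidase gene Gla (-0.23) and the beta-glucuronidase gene Gusb (-0.23), given as log2 fold changes. Without WT replicate 2 these were -0.11 for Hexa, -0.0531 for Gla and -0.0013 for Gusb.

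The 8 genes of lipid breakdown and lipid binding were all below 0 (median log2 fold change -0.26), and 0 passed. The acid ceramidase gene Asah1 was at 273, 255 and 208 CPM in KO libraries, against 337, 502, 297 and 310 CPM in WT libraries. Every KO library lay below every WT library, with knockout replicate 3 the lowest. For Asah1 the log2 fold change was -0.56 ± 0.26 (SE; edgeR, unadjusted p = 0.0601, adjusted p = 0.956), and -0.36 without WT replicate 2. The acid lipase gene Lipa, whose product frees cholesterol and fatty acids from lipoproteins, was at 227, 192 and 216 CPM in KO libraries, against 261, 487, 188 and 253 CPM in WT libraries. WT replicate 3 lay below all KO values and the other WT libraries above them, and the log2 fold change of -0.49 ± 0.32 (SE) moved to -0.14 without WT replicate 2.

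Neither cholesterol transporter of the lysosome passed, and the groups overlapped for both. Npc1, in the membrane, had 42.3 ± 3.42 CPM in KO (SD, n = 3) and 51.9 ± 18.0 CPM in WT libraries (SD, n = 4). Npc2, its soluble partner, had 252 ± 67.9 CPM in KO and 279 ± 38.4 CPM in WT libraries. Psap was at 602, 711 and 1145 CPM in KO libraries, against 785, 1723, 669 and 804 CPM in WT libraries, with WT replicate 2 far above the rest. The other sphingolipid genes were Smpd1, for acid sphingomyelinase (log2 fold change -0.16), and Gm2a, for the activator of ganglioside breakdown (-0.23). Ppt1, for an enzyme that removes palmitate from proteins, was at -0.10 on the same scale.

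Among the membrane proteins, Lamp1 and Lamp2, the main glycoproteins of the lysosomal membrane, had log2 fold changes of -0.28 ± 0.32 and -0.36 ± 0.31 (SE). Lamp2 was at 1219, 995 and 736 CPM in KO libraries, against 1213, 1621, 997 and 1208 CPM in WT libraries, so that only knockout replicate 1 lay inside the WT range, and knockout replicates 2 and 3 lay below it. The calcium channel gene Mcoln1 was at 46.5, 43.4 and 72.5 CPM in KO libraries, against 41.2, 33.8, 50.6 and 45.5 CPM in WT libraries. WT replicate 2, the highest library for most of the 38, was the lowest for this gene. Its log2 fold change, the highest of the 38, was 0.34 ± 0.23 (SE; edgeR, adjusted p = 0.956), but -0.02 without WT replicate 2 and knockout replicate 3. Laptm5, a membrane protein of blood cells that promotes receptor turnover, had 183 ± 70.7 CPM in KO (SD, n = 3) and 209 ± 84.3 CPM in WT libraries (SD, n = 4).

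Of the proton pump genes, Atp6v1h, for a subunit of the cytosolic part, was at 81.2, 80.6 and 66.9 CPM in KO libraries, against 94.1, 104, 82.2 and 82.1 CPM in WT libraries. The groups were apart, the closest pair being 81.2 CPM (KO) and 82.1 CPM (WT). Its log2 fold change was -0.25 ± 0.18 (SE; edgeR, adjusted p = 0.956). Atp6ap1, for an accessory protein of the pump, was at 171, 162 and 185 CPM in KO libraries, against 179, 370, 169 and 170 CPM in WT libraries. The log2 fold change of Atp6ap1 was -0.37 ± 0.31 (SE), and -0.0025 without WT replicate 2.

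Atp6v0d1 and Atp6v0d2 encode alternative forms of 1 pump subunit, the first found in most cells and the second in osteoclasts and some macrophages. Atp6v0d1 was at 67.8, 69.1 and 77.1 CPM in KO libraries, against 75.1, 87.1, 67.1 and 84.8 CPM in WT libraries. Atp6v0d2 was at 1.61, 1.77 and 0.680 CPM in KO libraries, against 1.54, 0.983, 1.16 and 1.39 CPM in WT libraries, resting on 11 to 53 counts per library. Knockout replicates 1 and 2 were the highest of the 7 and knockout replicate 3 the lowest. The log2 ratio of Atp6v0d2 to Atp6v0d1 was -5.33 ± 0.61 in KO (SD, n = 3) and -5.48 ± 0.29 in WT libraries (SD, n = 4). The difference of 0.15 did not pass a two-sided exact permutation test (p = 0.629; the smallest p the 35 ways of choosing 3 of 7 libraries allow is 0.0286).

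Tfeb itself was near the bottom of the 38, at 1.91, 1.24 and 4.20 CPM in KO libraries, against 2.82, 2.02, 1.74 and 2.23 CPM in WT libraries, from 21 to 68 counts. Knockout replicate 3 was the highest and knockout replicate 2 the lowest, and the log2 fold change of 0.14 ± 0.42 (SE) was -0.47 without knockout replicate 3. The progranulin gene Grn, whose product enters lysosomes and is cut into granulins there, was at 159, 170 and 450 CPM in KO libraries, against 207, 527, 190 and 264 CPM in WT libraries. Knockout replicates 1 and 2 were the lowest of the 7. The log2 fold change was -0.20 ± 0.46 (SE; edgeR, adjusted p = 0.980), and -0.42 without WT replicate 2 and knockout replicate 3.

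Other genes of the pathway showed the same absence of calls. Of 102 listed, 100 were tested and 0 were called. Among these 56 were below 0 (median log2 fold change -0.04), and 2 higher and 1 lower had an unadjusted p under 0.05, against 2.27% and 2.35% of all genes. Without knockout replicate 3 those counts were 2 higher and 5 lower, where 845 of the 14254 genes tested had such a p in either direction. Without WT replicate 2 they were 0 and 0, against 1.99% and 2.24% of all genes. Without both libraries they were 3 higher and 8 lower, against 3.62% and 3.96% of all genes. Among 28 further hydrolases 20 were below 0, and Scpep1, a serine carboxypeptidase, was at 59.4, 60.1 and 65.0 CPM in KO libraries, against 77.1, 107, 65.6 and 85.5 CPM in WT libraries (log2 fold change -0.45 ± 0.20, SE; edgeR, unadjusted p = 0.0486, adjusted p = 0.956). The groups of Scpep1 were apart by less than 1 CPM. The sulfatase gene Arsb was at a log2 fold change of -0.35. Among 24 further membrane proteins and transporters 13 were below 0, and the tetraspanin gene Cd63 (0.40) was higher in each KO library than in any WT library, while Hgsnat (-0.49), an acetyltransferase of heparan sulfate breakdown, was lower in each.

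Of 14 further pump subunits 7 were above 0. Tcirg1, for a membrane subunit, was at 46.3, 55.0 and 125 CPM in KO libraries, against 43.5, 30.1, 50.3 and 45.9 CPM in WT libraries, with knockout replicate 3 far above the others (log2 fold change 0.83 ± 0.33, SE; edgeR, unadjusted p = 0.0308, adjusted p = 0.956). The GC content of Tcirg1 is 58.6%. Atp6v0b (0.39) was higher in each KO library than in any WT library. Of 15 genes that sort proteins to the lysosome 9 were below 0, with the mannose 6-phosphate receptor gene Igf2r at -0.51 and the sorting receptor gene Sort1 at -0.59.

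Of 16 genes of nutrient sensing and its transcription factors 11 were above 0. Flcn, which controls TFEB through RAG GTPases, was at 60.2, 64.1 and 149 CPM in KO libraries, against 54.5, 55.0, 64.9 and 54.7 CPM in WT libraries, with knockout replicate 3 again far above (log2 fold change 0.67 ± 0.30, SE; edgeR, unadjusted p = 0.0494, adjusted p = 0.956). Lamtor5, for a subunit of the lysosomal Ragulator complex, had a log2 fold change of 0.42. Of the cystatins, inhibitors of cysteine cathepsins, 3 of 5 were tested, with log2 fold changes of -0.69 (Cst7), -0.11 (Cst3) and 0.32 (Cstb).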

How the data were processed

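For 7 libraries of total RNA the deposited values are raw whole-number counts for each gene. The libraries were made with version 2 of the TruSeq RNA kit, as the labels' protocols state. The submitters' processing notes name the build GRCm39 and the tools featureCounts 2.0.3, STAR 2.7.10a, FastQC 0.11.9 and SAMtools 1.9, with no role or order. Gene models and counting options were not given in the sources used here. The kit does not mark strand, so overlapping genes cannot be told apart. The labels do not say that each library came from a separate mouse, so each p-value reflects only how these libraries vary, which may be technical. Replicates are numbered in accession order.

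Groups were compared in edgeR 4.0.16 (R 4.3.3) by quasi-likelihood, with TMM factors, filterByExpr (minimum count 10, minimum total 15) and Benjamini-Hochberg adjustment over all 14077 genes, at a threshold of 0.05. Each SE is the absolute log2 fold change divided by the root of the F statistic. The prior count for log2 CPM was 2. A count of 0 could hide 3 counts, or 0.0909 to 0.249 CPM. The log2 ratio used a pseudocount of 0.5 CPM. GC content and exon lengths were taken from GENCODE M21 transcripts, with a value for 38 of 38 genes. The GC correction was a loess curve (span 0.5) per library, used as an offset. DESeq2 1.42.0 and limma 3.58.1 (voom), other scalings and filters, and leaving out libraries were alternatives. The edgeR fits, with and without the GC correction, were also run on simulated data. That simulation held no library like WT replicate 2, its outcome is not given here, and no result rests on it. The genes and lists, and the pair of libraries left out together, were chosen with earlier results of these data known. All 38 genes are named, with full statistics for those whose groups did not overlap or that had the smallest p of their role, and of the other lists the 2 genes with the smallest p are named. Cst3 and the values given for other genes were chosen after they were seen.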

Additional observations from a re-analysis of the deposited data

Results flagged for a closer look

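Of 66 sets of WT values checked, 9 had 1 library far from the other 3. Chance gives about 5% for independent sets, but these sets share the same WT libraries, so no excess over chance can be read. WT replicate 2 was the distant library in 8 of the 9. For Tpp1 it stood at 307 CPM, against 139 to 153 CPM in the other WT libraries. For Man2b1 it stood at 520 CPM (others 222 to 239 CPM), for Manba at 103 CPM (others 43.7 to 50.7 CPM) and for Psap at 1723 CPM (others 669 to 804 CPM). Laptm5 was at 334 CPM (others 156 to 177 CPM) and Atp6ap1 at 370 CPM (others 169 to 179 CPM). Outside the 38 genes, Hgsnat was at 107 CPM (others 57.4 to 58.8 CPM) and Sort1 at 58.7 CPM (others 20.4 to 24.7 CPM). For Flcn the distant library was WT replicate 3, at 64.9 CPM (others 54.5 to 55.0 CPM).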

How the results depend on the processing

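Under every alternative run, 0 of the 38 genes were called. Over all genes, 0 were called in the main fit, 3 with library size only, 3 with no filter, 66 by DESeq2, 9 by voom with quality weights and 2 without WT replicate 2 and knockout replicate 3, where 650 had an unadjusted p under 0.05 in the main fit. The count of the 38 lower at unadjusted p under 0.05, 0 in the main fit, was 3 by DESeq2's test, 2 without WT replicate 2 and knockout replicate 3, and 0 to 2 without any single library. It was 1 with DESeq2's size factors, without mitochondrial genes and Rn18s, with no filter, by voom with or without weights, and with the GC correction with or without WT replicate 2. The median log2 fold change of the 38 lay between -0.45 (without knockout replicate 3) and -0.0039 (without WT replicate 2) when 1 library was left out, and between -0.34 and -0.10 otherwise. The difference between KO and WT in the log2 ratio of Atp6v0d2 to Atp6v0d1 lay between -0.0455 and 0.51 without 1 library, where the exact test cannot pass with so few ways of choosing libraries. Log2 fold changes that turned sign without 1 library had ranges of -0.40 to 0.0516 (Ctsc), -0.54 to 0.039 (Ctsz), -0.63 to 0.0021 (Ctsa), -0.78 to 0.21 (Ctsd), -0.41 to 0.11 (Tpp1), -0.61 to 0.67 (Gaa), -1.097 to 0.0113 (Glb1), -0.63 to 0.0874 (Man2b1), -0.27 to 0.19 (Neu1), -0.37 to 0.018 (Npc2), -0.60 to 0.12 (Psap), -0.45 to 0.0333 (Smpd1), -0.27 to 0.0919 (Ppt1), -0.42 to 0.0146 (Lamp1), -0.55 to 0.13 (Laptm5), -0.125 to 0.40 (Atp6v0d2), -0.47 to 0.43 (Tfeb) and -0.86 to 0.24 (Grn). Signs also turned without WT replicate 2 and knockout replicate 3 (Ctsc 0.10, Gaa -0.21, Neu1 -0.25, Ppt1 0.21, Mcoln1 -0.0249, Tfeb -0.51), by voom (Neu1 -0.016, Tfeb -0.0548) and by voom with quality weights (Ctsc 0.11, Gaa -0.17, Neu1 -0.24, Ppt1 0.19, Tfeb -0.385). With the GC correction they turned for Gaa (-0.12), Neu1 (-0.14) and Tfeb (-0.25), and without WT replicate 2 as well for Ctsc (0.13), Tpp1 (0.16), Neu1 (-0.11), Psap (0.0053), Ppt1 (0.0416), Tfeb (-0.27) and Grn (0.0197). The cause of these turns was not tested. No paired analysis was possible because the labels give the KO and WT libraries no shared replicate numbers. Atp6v0d2 and Tfeb, with as few as 11 and 21 counts in a library, are limited by depth.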
